A study of Homo sapiens with 30 samples.

Results

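The 8 genes described here were picked because their response to the BRD9 degrader dBRD9-A differed between the multiple myeloma cell lines OPM2 and H929: CYSLTR1, PTGER4, PSD3, CDC14B, ANK1, NCAM2, SH3PXD2B and AFAP1L2, 8 of the 25680 gene symbols in the count tables. For each symbol the transcript with the highest mean count was taken. The 4 groups of 3 libraries each were OPM2 in DMSO, the solvent control, OPM2 with 100 nM dBRD9-A, H929 in DMSO and H929 with 100 nM dBRD9-A, all after 24 h, measured by RNA-seq of polyadenylated RNA. No genetic change is given for these cells. OPM2 and H929 are established plasma cell tumour lines, and nothing in the labels ties replicates to cultures grown apart; p-values therefore weigh the libraries' own spread, and that spread could be purely technical. The 18 other samples of the series, with short hairpin RNAs or polysome RNA, were not analysed here.

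The genes had been listed as responding in 1 line only, and the counts went against that description for 5 of them. CYSLTR1 and CDC14B were higher with dBRD9-A in both lines, by unequal amounts. SH3PXD2B, AFAP1L2 and PTGER4 were lower in OPM2 and higher in H929. PSD3 was higher in OPM2 and had overlapping libraries in H929. ANK1 and NCAM2 were higher in OPM2, and in H929 the transcripts used here had at most 1 count in any library. Because the genes were chosen on these contrasts, their changes are given as a description, without a test. As a limit, the smaller change of each of the 5 did not keep an adjusted p under 0.05 in all 21 alternative analyses. In H929 it was kept in 9 for SH3PXD2B, 15 for CYSLTR1 and 18 for CDC14B. In OPM2 it was kept in 10 for PTGER4 and 12 for AFAP1L2. As the genes were picked on these contrasts, the tallies show dependence on processing and single libraries only. They are no test of a response.

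BRD9 is a bromodomain protein and a defining subunit of the non-canonical BAF complex, a machine that uses ATP to slide or evict nucleosomes. A degrader such as dBRD9-A joins a BRD9 ligand to a ligand for an E3 ubiquitin ligase, so that BRD9 is ubiquitinated and removed by the proteasome. The drug acts on the protein, and the BRD9 transcript is therefore no check of the treatment. BRD9 mRNA was 89.7 ± 4.03 CPM (mean ± SD, n = 3; CPM is the count scaled to a common library total) in OPM2 DMSO and 76.3 ± 8.04 CPM with dBRD9-A (edgeR adjusted p = 0.241), and 87.7 ± 13.5 and 63.6 ± 6.80 CPM in H929 (edgeR adjusted p = 0.0391, but 0.0586 to 0.23 when any of 8 single libraries was left out, all except OPM2 dBRD9-A replicates 1, 2 and 3 and H929 dBRD9-A replicate 3).

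Library totals over genes were 42895388 to 76600949 counts in 11 libraries and 24524190 in OPM2 dBRD9-A replicate 2. That library also stood apart in its values: over 9355 genes the SD of its log2 deviations from its group mean was 0.793, against 0.378 and 0.444 in the other libraries of its group and 0.108 to 0.241 in the other 9. The OPM2 changes of the 8 genes and the counts of called list genes are given with and without it, as are several results of single genes. All 10 plasma cell markers were detected in every group; their summed level was 12210 to 14580 CPM in OPM2 DMSO and 7072 to 8078 CPM with dBRD9-A, and 15980 to 17390 and 9588 to 10920 CPM in H929. In each line 3 of the 10 fell and none rose by edgeR at an adjusted p under 0.05. Over all genes 7.36% fell in OPM2 and 5.67% in H929. Summed markers of other cell types, in OPM2 DMSO and dBRD9-A and then in H929 DMSO and dBRD9-A, were 0.389 to 0.521, 0.453 to 1.39, 27.1 to 30.2 and 39.6 to 41.6 CPM for T and NK cells. For macrophages they were 0.415 to 0.535, 0.505 to 0.961, 1.602 to 4.21 and 5.24 to 10.6 CPM, and for fibroblasts 0.0314 to 0.206, 0.287 to 0.592, 0.253 to 0.371 and 1.23 to 2.52 CPM. For epithelial cells they were 0 to 0.0779, 0.0842 to 0.636, 8.38 to 11.2 and 15.6 to 24.8 CPM, and for endothelial cells 1.12 to 1.76, 1.22 to 2.37, 27.4 to 37.1 and 29.3 to 44.9 CPM. KRT19 (epithelium), COL1A2 and LUM (fibroblasts) were at 0 in all 4 groups. CD3D (T cells) and CDH5 (endothelium) were at 0 in all but H929 dBRD9-A. Every other marker of these lists had counts in at least 1 group. In DMSO, edgeR called 3 of 4 T and NK and 3 of 3 epithelial markers tested higher in H929 than in OPM2. So were 1 of 1 fibroblast and 1 of 1 endothelial marker tested. Of 2 macrophage markers tested, 1 was called higher and 1 lower. Over all genes 21.4% were called higher and 15.0% lower (adjusted p under 0.05 and at least 2-fold). The part of these transcripts in the results was not tested.

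The 250 bases upstream of the transcription start are shown for the 5 genes whose RefSeq entry has a known distance to a counted transcript start. They show the base composition and motif letters next to the start of each entry. CDC14B has 3 entries, of which the one nearest a counted start is printed. They are from RefSeq, build GRCh38.p14, at chrX:78327612-78327861 (minus strand), chr9:96619844-96620093 (minus), chr5:172454526-172454775 (minus), chr10:114404503-114404752 (minus) and chr5:40679665-40679914 (plus), written 5′ to 3′ with the last base next to the start. The distance from the table's start to the nearest annotated start of a counted transcript is 80 nt for CYSLTR1, 13 nt for CDC14B, 2 nt for SH3PXD2B, 17 nt for AFAP1L2 and 417 nt for PTGER4. For PTGER4 this distance exceeds the 250 bases printed, so its sequence does not adjoin the counted start. Capitals mark matches to the motifs searched.
CYSLTR1: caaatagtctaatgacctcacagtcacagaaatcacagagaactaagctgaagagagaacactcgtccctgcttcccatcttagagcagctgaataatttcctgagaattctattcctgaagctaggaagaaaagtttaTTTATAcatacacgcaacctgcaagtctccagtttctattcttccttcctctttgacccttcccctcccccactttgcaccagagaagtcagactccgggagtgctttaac
CDC14B: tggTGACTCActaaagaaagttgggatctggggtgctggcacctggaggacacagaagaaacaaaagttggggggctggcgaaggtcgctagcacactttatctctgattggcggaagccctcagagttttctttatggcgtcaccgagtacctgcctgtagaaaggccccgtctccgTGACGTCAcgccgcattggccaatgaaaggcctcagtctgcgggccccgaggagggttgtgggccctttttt
SH3PXD2B: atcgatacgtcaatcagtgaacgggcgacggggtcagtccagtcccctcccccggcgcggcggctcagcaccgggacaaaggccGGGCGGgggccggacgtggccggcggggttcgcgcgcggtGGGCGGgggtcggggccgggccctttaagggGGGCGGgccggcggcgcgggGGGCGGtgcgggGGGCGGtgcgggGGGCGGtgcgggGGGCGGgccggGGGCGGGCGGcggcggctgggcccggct
AFAP1L2: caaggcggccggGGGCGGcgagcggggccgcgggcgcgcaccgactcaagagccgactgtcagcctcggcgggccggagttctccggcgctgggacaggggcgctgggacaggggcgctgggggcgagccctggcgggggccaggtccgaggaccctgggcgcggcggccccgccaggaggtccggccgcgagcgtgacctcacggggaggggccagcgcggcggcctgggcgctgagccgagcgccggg
PTGER4: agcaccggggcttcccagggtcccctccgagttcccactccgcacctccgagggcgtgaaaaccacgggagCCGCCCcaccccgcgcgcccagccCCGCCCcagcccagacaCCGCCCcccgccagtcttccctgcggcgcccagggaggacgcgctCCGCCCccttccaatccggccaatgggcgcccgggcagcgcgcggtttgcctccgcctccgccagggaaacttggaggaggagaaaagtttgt
The stretches differ in base composition: G and C make up 44% of the CYSLTR1 sequence and 56% of that of CDC14B, and 82.8%, 81.6% and 72.8% of those of SH3PXD2B, AFAP1L2 and PTGER4. The median over all 34786 such sequences in the table is 58%. They hold 3, 12, 41, 37 and 26 CpG dinucleotides in the same order, against a median of 11. The other 2 CDC14B entries, 278 and 423 nt from the nearest counted start, hold 70% and 69.6% G and C and 21 and 28 CpG dinucleotides, so the composition upstream of CDC14B depends on the start chosen.

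A set of 9 motifs was searched on both strands: the TATA box TATAAA, the GC box GGGCGG, the E-box CACGTG, the cAMP response element TGACGTCA, the AP-1 site TGANTCA, the ETS site CCGGAAG, the interferon-stimulated response element, the octamer ATTTGCAT and the ETS-IRF composite element. The CYSLTR1 sequence holds a TATA match on the other strand, 111 bases before the start, a motif found in 10.8% of all such sequences. The printed CDC14B sequence holds a cAMP response element match 72 bases before the start (1.64% of all sequences) and an AP-1 match 247 bases before it (6.59%). GC boxes, present in 42.6% of all sequences, number 9 in SH3PXD2B, of which the 2 nearest the start overlap, 4 in PTGER4 and 1 in AFAP1L2. The CDC14B entries not printed hold 3 and 1 GC boxes and 1 ETS match each, a motif found in 8.5% of all sequences. A match is a string of letters, and binding of a factor was not measured.

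The plot of the 8 genes by library shows the levels on which the rest of the text rests.

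**Figure D1:**
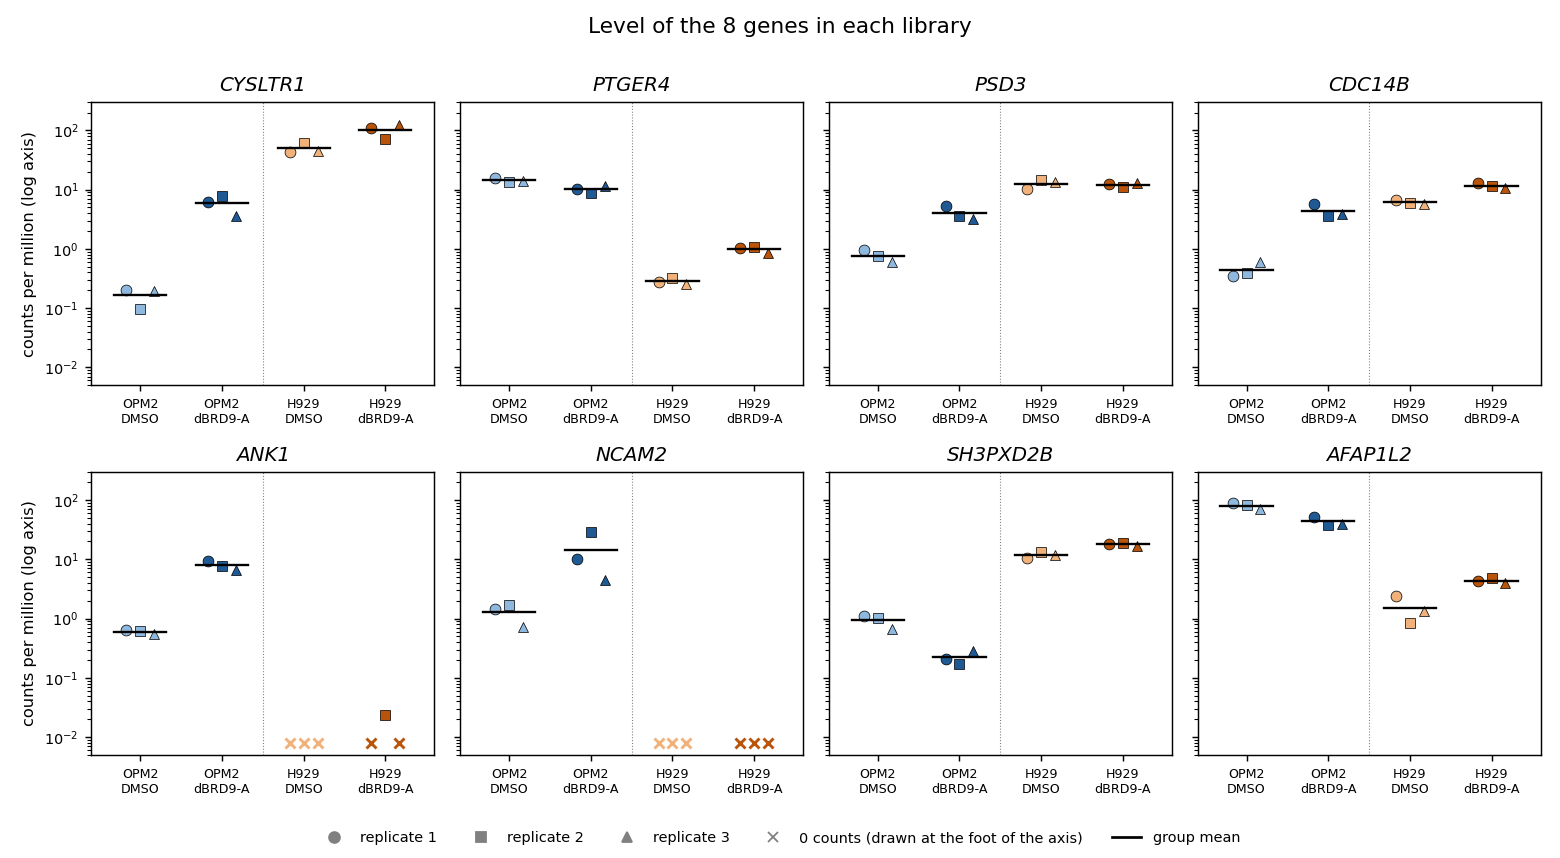
CPM (log axis) of the 8 genes in each library, by cell line and treatment; each symbol is a replicate library, crosses are libraries with 0 counts, drawn at the foot of the axis, and lines are group means, drawn where all 3 libraries had counts. CYSLTR1 lies between 0.0959 and 0.204 CPM in OPM2 DMSO and between 42.9 and 60.3 CPM in H929 DMSO, and ANK1 and NCAM2 have at most 1 count in any H929 library.

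CYSLTR1 and PTGER4 encode G-protein-coupled receptors for lipid mediators made from arachidonic acid. CYSLTR1 binds cysteinyl leukotrienes and is the target of the asthma drug montelukast, and PTGER4 binds prostaglandin E2 and raises intracellular cAMP. Their patterns were unlike: CYSLTR1 started near the detection limit in OPM2 and high in H929, and PTGER4 the other way round.

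CYSLTR1 stood at 0.204, 0.0959 and 0.195 CPM in the OPM2 DMSO libraries, 35 counts in all, and at 6.21, 7.79 and 3.56 CPM in those with dBRD9-A. Every treated OPM2 library was therefore above every control, with a log2 fold change of 5.12 ± 0.39 (SE), or 34.7-fold, and the largest change among the 8 genes. In H929 its level was 42.9, 60.3 and 45.65 CPM in DMSO and 107.6, 70.4 and 125.3 CPM with dBRD9-A. These groups did not overlap either, and the log2 fold change was 1.03 ± 0.27. The treated OPM2 libraries stayed below all H929 controls.

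PTGER4 was at 15.9, 13.5 and 14.1 CPM in OPM2 DMSO and at 10.4, 8.88 and 11.6 CPM with dBRD9-A, a log2 fold change of -0.49 ± 0.15. In H929 it was at 0.274, 0.321 and 0.253 CPM in DMSO, 49 counts over the 3 libraries, and at 1.046, 1.063 and 0.842 CPM with dBRD9-A. The H929 change was 1.79 ± 0.20 on the log2 scale, or 3.45-fold. Libraries of the 2 treatments did not overlap in either line, and the direction was opposite.

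PSD3 and CDC14B are intracellular regulators. PSD3 is an exchange factor that activates the small GTPase ARF6, which controls membrane recycling and the cell cortex. CDC14B is a dual-specificity phosphatase of the family that in yeast drives exit from mitosis. Both were low in OPM2 and higher in H929 before treatment.

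PSD3 was at 0.958, 0.754 and 0.597 CPM in OPM2 DMSO and 5.24, 3.58 and 3.23 CPM with dBRD9-A, a log2 fold change of 2.39 ± 0.24 (5.26-fold) with no overlap. In H929 it was at 10.1, 14.3 and 13.6 CPM in DMSO and 12.4, 10.9 and 12.8 CPM with dBRD9-A. The H929 libraries overlapped, and the estimate was -0.07 ± 0.21, with its sign turned in 4 of 21 alternative analyses, to at most 0.05 (without H929 DMSO replicate 2).

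CDC14B was at 0.346, 0.397 and 0.597 CPM in OPM2 DMSO and 5.83, 3.54 and 3.88 CPM with dBRD9-A, a log2 fold change of 3.30 ± 0.25 (9.85-fold). In H929 it was at 6.64, 5.86 and 5.82 CPM in DMSO and 12.7, 11.6 and 10.5 CPM with dBRD9-A, a log2 fold change of 0.92 ± 0.21. All treated libraries were above all controls in both lines, and 1 treated OPM2 library, at 5.83 CPM, lay within the range of the H929 controls. CDC14B overlaps HABP4, a gene on the opposite strand. The library kit keeps strand, and the strand setting of the counting is not known here. HABP4, examined because of this overlap, was at 10.8 ± 0.256 CPM in OPM2 DMSO and 13.9 ± 0.904 CPM with dBRD9-A, and its log2 fold changes were 0.37 ± 0.12 in OPM2 (edgeR adjusted p = 0.0466) and 0.25 ± 0.12 in H929 (adjusted p = 0.185). The difference of its responses was -0.12 ± 0.16 (edgeR adjusted p = 0.843).

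ANK1 and NCAM2 concern the cell surface. The ANK1 gene is known for the erythrocyte ankyrin that fastens membrane proteins to the spectrin skeleton. The ANK1 transcript counted here is a short one, and the counts do not tell which form of ankyrin changed. NCAM2 is an immunoglobulin-fold adhesion molecule known from olfactory neurons. Both ANK1 and NCAM2 were detected in OPM2 and essentially not in H929, so no H929 response could be estimated.

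ANK1 was at 0.644, 0.617 and 0.545 CPM in OPM2 DMSO and 9.43, 7.75 and 6.57 CPM with dBRD9-A, a log2 fold change of 3.72 ± 0.27 (13.1-fold) with no overlap. On the transcript used, H929 had 0 counts in all DMSO libraries and 1 count in 1 of 3 dBRD9-A libraries. The OPM2 DMSO mean of ANK1 was 34.8-fold above the H929 DMSO floor of 3 counts over the group. This ratio leaves out the spread of the OPM2 libraries. Levels under 0.0173 CPM in H929 DMSO and 0.0198 CPM with dBRD9-A were not detectable at this depth. The files list 8 transcripts of ANK1 whose OPM2 log2 ratios lie between 3.71 and 3.84. The short transcript used here, of 3296 nt, had 1257 counts over the OPM2 dBRD9-A libraries and a long one, of 8292 nt, had 1063, so at least 194 counts fell on sequence of the short transcript alone. ANK1, like CDC14B, overlaps a gene on the opposite strand, which is not among the counted symbols. As the strand setting is not known, the part of that gene in the ANK1 counts was not tested. In H929 with dBRD9-A each of the 5 long transcripts had 4 counts and each of the 3 short ones 1, against 0 for all 8 in H929 DMSO. The summed level of 5 erythroid markers was 5.91 to 6.58 CPM in OPM2 DMSO and 3.21 to 4.51 CPM with dBRD9-A, with HBA1 and HBA2 at 0 counts in both. In H929 it was 0.0903 to 0.258 and 0.0693 to 0.337 CPM.

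NCAM2 was at 1.43, 1.73 and 0.727 CPM in OPM2 DMSO and 10.0, 29.1 and 4.56 CPM with dBRD9-A. The groups did not overlap, and the treated libraries differed more from each other, relative to their mean, than for any other of the 8 genes. The log2 fold change was 3.47 ± 0.68 (11.1-fold), and 2.48 ± 0.36 without OPM2 dBRD9-A replicate 2, in which NCAM2 was 3.997 times the mean of the other treated libraries. H929 had 0 counts in all 6 libraries. In DMSO the OPM2 mean of NCAM2 was 74.8-fold above the H929 floor of 3 counts over the group. With dBRD9-A it was 734.5-fold above that floor, and 367.3-fold without OPM2 dBRD9-A replicate 2. These ratios leave out the spread of the OPM2 libraries, of which the lowest were at 0.727 CPM in DMSO and 4.56 CPM with dBRD9-A. The 4 neuronal markers MAP2, SYP, RBFOX3 and SNAP25, summed, were at 4.41 to 6.02 CPM in OPM2 DMSO, with SNAP25 at 0, and at 18.4 to 27.8 CPM with dBRD9-A, against 8.10 to 8.96 and 8.10 to 10.5 CPM in H929. By edgeR 1 of the 4 rose in each line, and the part of such transcripts in the NCAM2 values was not tested.

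SH3PXD2B and AFAP1L2 encode adaptors linked to SRC-family tyrosine kinases. SH3PXD2B, or TKS4, is a scaffold of podosomes and invadopodia, the actin-rich protrusions with which cells degrade matrix, and AFAP1L2, or XB130, passes tyrosine kinase signals to phosphoinositide 3-kinase. Both were lower with dBRD9-A in OPM2 and higher in H929, from opposite starting levels.

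SH3PXD2B was at 1.10, 1.03 and 0.675 CPM in OPM2 DMSO and 0.207, 0.168 and 0.287 CPM with dBRD9-A, where the 3 libraries held 37 counts in all. In H929 it was at 10.4, 13.2 and 11.9 CPM in DMSO and 18.0, 19.1 and 16.8 CPM with dBRD9-A. The log2 fold changes were -2.00 ± 0.26 and 0.60 ± 0.18, with no overlap in either line.

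AFAP1L2 was at 88.3, 83.8 and 69.5 CPM in OPM2 DMSO and 52.5, 38.4 and 40.2 CPM with dBRD9-A, a log2 fold change of -0.88 ± 0.26. In H929 it was at 2.42, 0.855 and 1.34 CPM in DMSO and 4.29, 4.78 and 3.99 CPM with dBRD9-A, a log2 fold change of 1.49 ± 0.29. The H929 controls were spread over a wider range than the treated libraries, and neither line's groups overlapped.

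The plot of responses sets both lines side by side. In OPM2 the libraries of the 2 treatments did not overlap for any of the 8 genes, 5 being higher and 3 lower with dBRD9-A. Over all 16409 genes tested, edgeR at an adjusted p under 0.05 called 10.1% higher and 7.36% lower in OPM2. In H929 the libraries did not overlap for 5 of the 6 genes with an estimate, all 5 higher, and edgeR called 7.33% of all genes higher and 5.67% lower. The difference of the responses (H929 minus OPM2) was positive for 3 of these 6 genes and negative for 3; over all genes edgeR called 0.293% higher and 0.286% lower. Since the genes were chosen for these contrasts, the shares are printed for scale only. A call is also another measure than a sign or libraries that do not overlap. The share of all genes without overlap was not counted. Without OPM2 dBRD9-A replicate 2 the OPM2 log2 fold changes were 4.87 for CYSLTR1, 2.46 for PSD3, 3.41 for CDC14B, 3.72 for ANK1, -1.91 for SH3PXD2B, -0.81 for AFAP1L2 and -0.41 for PTGER4. With libraries scaled by their totals alone, 69.4% of the OPM2 calls over all genes were higher in place of 57.8%, and 71.8% of the H929 calls in place of 56.4%.

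**Figure D2:**
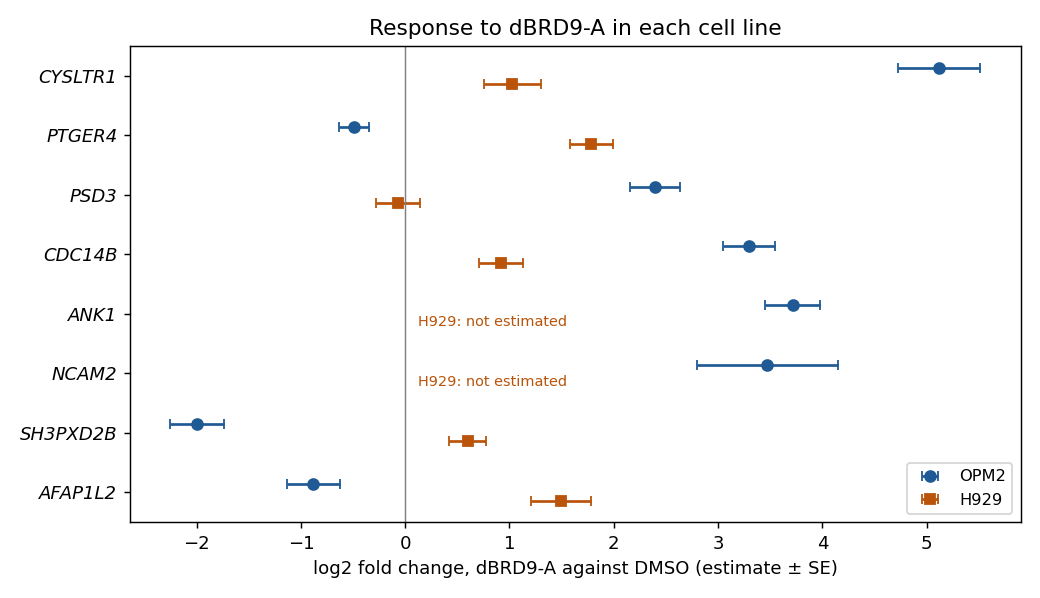
Log2 fold change with dBRD9-A against DMSO (horizontal axis; estimate and SE from the fit to 12 libraries) for each of the 8 genes in OPM2 (circles) and H929 (squares). CYSLTR1 and CDC14B lie right of 0 in both lines, PTGER4, SH3PXD2B and AFAP1L2 lie left of 0 in OPM2 and right of it in H929, and no H929 value could be estimated for ANK1 and NCAM2.

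Starting levels were far apart. In DMSO, CYSLTR1 was 298.5-fold, PSD3 16.5-fold, CDC14B 13.5-fold and SH3PXD2B 12.7-fold higher in H929, and AFAP1L2 was 52.1-fold and PTGER4 50.9-fold higher in OPM2. The line with the lower DMSO level had the more positive response for 5 of these 6 genes, and their distance was smaller with dBRD9-A: 17.5-fold for CYSLTR1, 2.98-fold for PSD3, 2.60-fold for CDC14B, 10.1-fold for AFAP1L2 and 10.5-fold for PTGER4. The distance of SH3PXD2B was larger, 76.7-fold. No gene changed places: the line that was higher in DMSO was also higher with dBRD9-A. The libraries of the lines did not overlap for any of the 6 genes, in DMSO or with dBRD9-A. By another measure, edgeR at an adjusted p under 0.05 and at least 2-fold, 36.3% and 38.7% of all genes were called. The share of all genes without overlap between the lines was not counted. The levels in DMSO enter both the distance and the response, so that these 2 quantities are not independent. Scaling by library totals alone lowered the H929-minus-OPM2 differences of all genes in DMSO by 0.12 at the median, on the log2 scale.

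**Figure D3:**
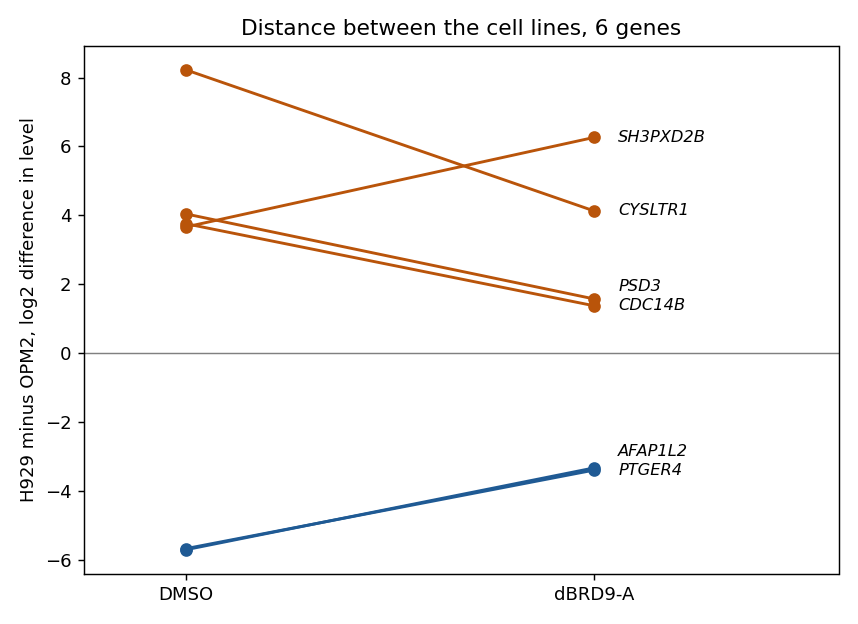
H929 level minus OPM2 level on the log2 scale (vertical axis) in DMSO and with dBRD9-A for the 6 genes detected in both lines; orange lines are genes higher in H929 and blue lines genes higher in OPM2. Of these lines 5 approach 0, and that of SH3PXD2B moves away, from 3.67 to 6.26.

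Levels between genes were compared in CPM per kilobase of transcript. In OPM2 DMSO the order was AFAP1L2 (19.4 ± 2.37; SD, n = 3), PTGER4 (4.24 ± 0.365), NCAM2 (0.259 ± 0.103), ANK1 (0.183 ± 0.0155), SH3PXD2B (0.12 ± 0.0292), CDC14B (0.0799 ± 0.0238), PSD3 (0.0659 ± 0.0155) and CYSLTR1 (0.0582 ± 0.0211). The library ranges of NCAM2 and ANK1 overlapped, as did those of neighbours from SH3PXD2B down. With dBRD9-A the 3 genes next below AFAP1L2 (10.5 ± 1.85) were PTGER4 (3.01 ± 0.395), NCAM2 (2.91 ± 2.58) and ANK1 (2.40 ± 0.438), whose neighbouring ranges overlapped, and CYSLTR1 (2.06 ± 0.753) overlapped ANK1. Without OPM2 dBRD9-A replicate 2 NCAM2 was at 1.455, below PTGER4 (3.22), ANK1 (2.43) and CYSLTR1 (1.72). SH3PXD2B was lowest with dBRD9-A, at 0.0284 ± 0.00776 over the 3 libraries and 0.03175 without OPM2 dBRD9-A replicate 2.

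In H929 DMSO CYSLTR1 led at 17.5 ± 3.29 CPM per kilobase, followed by SH3PXD2B (1.52 ± 0.182), CDC14B (1.09 ± 0.0834), PSD3 (1.08 ± 0.194), AFAP1L2 (0.37 ± 0.193) and PTGER4 (0.0827 ± 0.0101). Of these neighbours CDC14B and PSD3 overlapped. With dBRD9-A CYSLTR1 was at 35.6 ± 9.87, and SH3PXD2B overlapped CDC14B, as AFAP1L2 did PSD3.

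The genes whose log2 CPM followed each of the 8 most closely over the 12 libraries were sought among 11466 or 11467 genes with a mean of at least 1 log2 CPM. For CYSLTR1 they were CD68 (Pearson r = 0.992), IFI6 (0.991) and KIAA1324L (0.988), with OPM2 log2 fold changes of 2.79, 3.51 and 1.91. For PTGER4 they were RHOBTB1 (0.992), CTHRC1 (0.991) and JSRP1 (0.991), with H929 log2 fold changes of 1.57, 0.83 and 1.91. For PSD3 they were ATP2B4 (0.988), CYSLTR1 (0.984) and SP140L (0.977), and for CDC14B MAN1C1 (0.985), FBXL20 (0.984) and TMEM2 (0.984). ANK1 was followed by HSPB1 (0.995), KLLN (0.992) and TMOD1 (0.992), and NCAM2 by DKFZP434I0714 (0.995), PRAME (0.994) and PBX3 (0.993). SH3PXD2B was followed by GABRR2 (0.997), ARRB2 (0.996) and WNT10B (0.992), and AFAP1L2 by ZC4H2 (0.989), DOK2 (0.988) and ZNF559 (0.987). The 12 points share 2 lines and 2 treatments, so a gene that differs widely between the lines scores high whatever its response; TMOD1, for instance, had log2 fold changes of 0.41 in OPM2 and 0.09 in H929.

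Genes of the same pathways and families were examined in 9 lists plus the paralogs of the 8 genes, which together hold 176 further genes. Of these, 136 passed the filter on low counts and 1, SH3PXD2A, was called in the difference between the responses, 0.735% against 0.579% of all genes tested. Without OPM2 dBRD9-A replicate 2 the called genes were 8 of 138 tested (ADCY1, ADCY6, ADCY7, NR4A2, CYTH3, ESPL1, SH3PXD2A and LYN), against 3.05% of all genes. In that fit edgeR also called more of all genes in each line's response, 31.7% in OPM2 and 35.7% in H929, in place of 17.4% and 13.0%. Rises and falls there, OPM2 then H929, were 8 and 6, then 6 and 4, of 23 ankyrin and spectrin genes. They were 5 and 4, then 6 and 3, of 21 in cAMP signalling, and 3 and 2, then 5 and 5, of 16 in eicosanoid synthesis. They were 3 and 2, then 3 and 1, of 9 AFAP and SRC genes, and 2 and 0, then 5 and 1, of 13 adhesion molecules. They were 1 and 1, then 0 and 2, of 15 CDC14 list genes, and 1 and 1, then 2 and 0, of 4 eicosanoid receptors. In the fit to 12 libraries, used below unless stated, edgeR called 10.1% of all genes higher and 7.36% lower in OPM2. In H929 it called 7.33% higher and 5.67% lower.

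SH3PXD2A, or TKS5, is the closest relative of SH3PXD2B and likewise a scaffold of invadopodia. It was at 0.22, 0.356 and 0.221 CPM in OPM2 DMSO and 1.33, 1.09 and 0.74 CPM with dBRD9-A. In H929 it was at 97.9, 106.6 and 115.0 CPM in DMSO and 121.1, 116.0 and 114.8 CPM with dBRD9-A. It rose in OPM2, with a log2 fold change of 1.97 ± 0.25 and no overlap (edgeR adjusted p = 0.000376), and was 0.14 ± 0.17 in H929, where the groups overlapped (edgeR adjusted p = 0.651). The difference was -1.83 ± 0.30 (edgeR adjusted p = 0.0182), the sign opposite to the 2.60 of SH3PXD2B. The call held in 10 of 20 alternative analyses, and it was lost without any of 9 single libraries (adjusted p 0.0552 to 0.0846), that is all but OPM2 DMSO replicate 2 and OPM2 dBRD9-A replicates 2 and 3. Both paralogs were higher in H929 in every library.

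**Figure D4:**
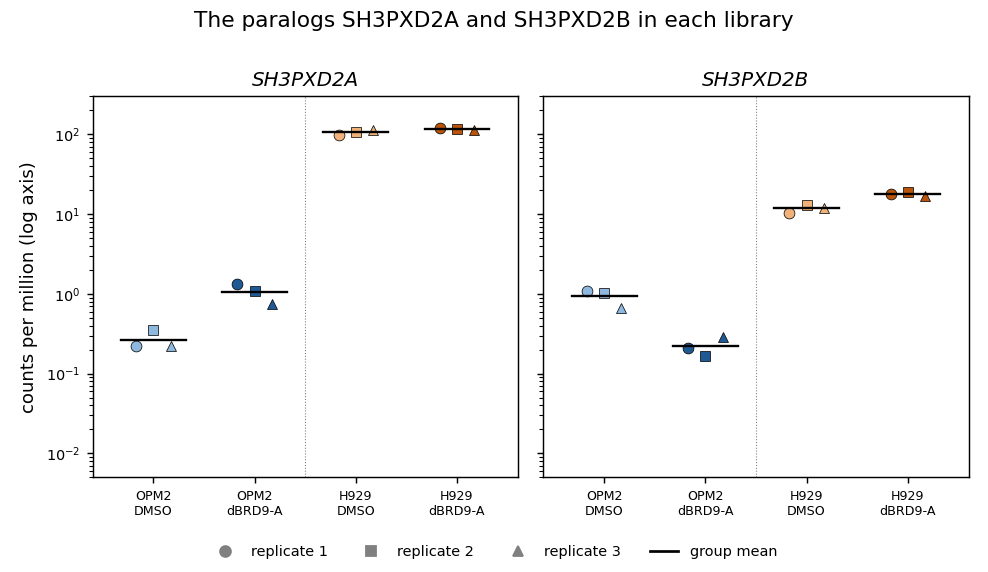
CPM (log axis) of SH3PXD2A and SH3PXD2B in each library, by cell line and treatment; symbols are replicate libraries and lines group means. In OPM2, SH3PXD2A goes from 0.266 to 1.05 CPM and SH3PXD2B from 0.934 to 0.221 CPM, while in H929 both lie between 10.4 and 121.1 CPM.

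Among podosome and invadopodium genes, 2 of 23 tested rose in OPM2 and none fell, and none of 23 was called in H929 by edgeR (median log2 fold changes 0.17 and 0.07, against 0.03 and -0.002 over all genes). The other gene that rose in OPM2 was NCF1, an NADPH oxidase subunit, at 0.0239 ± 0.0097 CPM in DMSO and 0.11 ± 0.0957 CPM with dBRD9-A, on 5 and 22 counts with overlapping libraries. Near-identical copies of NCF1 exist in the human genome, so its counts are uncertain. Its call (edgeR adjusted p = 0.0359) was lost without any of 7 single libraries, OPM2 DMSO replicates 1, 2 and 3, OPM2 dBRD9-A replicates 1 and 3, H929 DMSO replicate 3 and H929 dBRD9-A replicate 1 (adjusted p 0.0535 to 0.121). Without OPM2 dBRD9-A replicate 2, 5 of 24 rose and 1 fell in OPM2, and 5 rose, NCF1 among them (0.44; adjusted p = 0.0264), and 2 fell in H929, while 16.1% and 15.6% of all genes rose and fell in OPM2 and 19.2% and 16.5% in H929.

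Of the AFAP family and SRC kinases, 1 of 9 rose and 1 fell in OPM2 and 3 rose in H929 (medians 0.29 and 0.11). SRC itself rose in H929, with a log2 fold change of 1.20 ± 0.22 (edgeR adjusted p = 0.00423), and was 0.38 ± 0.21 in OPM2 (adjusted p = 0.234, and 0.0292 at 0.53 without OPM2 dBRD9-A replicate 2). LYN rose by 0.62 ± 0.17 in H929 (edgeR adjusted p = 0.0308, and 0.0603 to 0.0778 without any of H929 DMSO replicates 1, 2 and 3 and H929 dBRD9-A replicates 1 and 3); in OPM2 it was 0.05 ± 0.17, and -0.24 without OPM2 dBRD9-A replicate 2. BLK fell by 0.95 on the log2 scale in OPM2 (edgeR adjusted p = 0.043), a call that 9 of 12 single libraries decided, all but OPM2 DMSO replicate 3 and OPM2 dBRD9-A replicates 2 and 3 (0.0523 to 0.167). AFAP1, the nearest relative of AFAP1L2 tested, was -0.21 ± 0.14 in OPM2 and -0.33 ± 0.15 in H929 (edgeR adjusted p = 0.338 and 0.162, the latter 0.0418 without OPM2 dBRD9-A replicate 2), and AFAP1L1 did not pass the filter.

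Of 3 other eicosanoid receptors tested out of 13, LTB4R, a leukotriene B4 receptor, rose in H929 (0.86 ± 0.20; edgeR adjusted p = 0.0159), and PTGDR2, a prostaglandin D2 receptor, fell in OPM2 (-0.71 ± 0.20; adjusted p = 0.0333). Medians were -0.14 in OPM2 and 0.50 in H929. The LTB4R call was lost without H929 DMSO replicate 2 or 3 or H929 dBRD9-A replicate 1 or 2 (adjusted p 0.053 to 0.0786), and the PTGDR2 call without any OPM2 DMSO library or OPM2 dBRD9-A replicate 1 (0.0632 to 0.103). CYSLTR2, PTGER1, PTGER2 and PTGER3, the relatives of the 2 receptors, had at most 5 counts in any group and were not tested.

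Of 16 genes of eicosanoid synthesis and transport, 2 rose and 2 fell in OPM2 and 5 rose and 1 fell in H929 (medians -0.01 and 0.01). ALOX5AP, which presents arachidonic acid for leukotriene synthesis, rose by 2.46 ± 0.46 in OPM2 and 1.502 ± 0.35 in H929 (edgeR adjusted p = 0.00439 and 0.0147), the latter 0.0521 to 0.0709 without H929 DMSO replicate 2 or 3 or H929 dBRD9-A replicate 1. SLCO2A1, the prostaglandin importer, rose by 2.46 ± 0.47 in OPM2 and by 2.79 ± 0.52 in H929 (adjusted p = 0.00486 and 0.00532). DPEP1, which cleaves leukotriene D4 to leukotriene E4, rose by 2.35 ± 0.40 in H929 (adjusted p = 0.00308) and was 1.16 ± 0.39 in OPM2 (adjusted p = 0.0612, and 0.0139 at 1.32 without OPM2 dBRD9-A replicate 2). Differences between the lines were not called for these 3 genes (adjusted p = 0.664, 0.902 and 0.584). The OPM2 log2 fold changes were 1.87 for ALOX5AP and 2.54 for SLCO2A1 without OPM2 dBRD9-A replicate 2.

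In cAMP signalling, the pathway downstream of PTGER4, 3 of 21 rose and 2 fell in OPM2, and 5 rose and none fell in H929 (medians 0.10 and 0.08). NR4A2, a cAMP-inducible nuclear receptor, rose in H929 (2.33 ± 0.42; edgeR adjusted p = 0.00457) from 0.0628 ± 0.024 to 0.331 ± 0.115 CPM, and was 0.31 ± 0.26 in OPM2 (adjusted p = 0.448). The difference was 2.03 ± 0.50 (adjusted p = 0.131), and 2.29 (adjusted p = 0.0122) without OPM2 dBRD9-A replicate 2. PDE4B, a phosphodiesterase that breaks cAMP down, rose by 3.82 ± 0.57 in OPM2 and 2.77 ± 0.62 in H929 (adjusted p = 0.00119 and 0.0132, the latter 0.0512 and 0.0552 without H929 DMSO replicate 1 and H929 dBRD9-A replicate 1). RAPGEF3, a cAMP-activated exchange factor, rose by 1.42 ± 0.16 and 1.36 ± 0.16 (adjusted p = 0.000241 and 0.000558).

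Of 13 ARF exchange factors and ARF6 tested beside PSD3, 4 rose in OPM2 and 3 in H929 and none fell (medians 0.36 and 0.30). IQSEC2 and IQSEC3 rose in both lines, by 1.91 ± 0.24 and 1.35 ± 0.24 in OPM2 and by 1.98 ± 0.29 and 1.64 ± 0.24 in H929 (edgeR adjusted p 0.000411, 0.00324, 0.00149 and 0.00152). CYTH3 rose by 0.74 ± 0.14 in H929 (adjusted p = 0.00661) and was 0.30 ± 0.14 in OPM2 (adjusted p = 0.164); its difference had an adjusted p of 0.579, and 0.0319 without OPM2 dBRD9-A replicate 2. PSD4 was -0.33 ± 0.27 in OPM2 and 0.19 ± 0.27 in H929 (adjusted p = 0.419 and 0.718, the latter 0.0486 without OPM2 dBRD9-A replicate 2), and PSD and PSD2 did not pass the filter. Without that library 8 of 13 rose in OPM2 and 9 in H929, where 16.1% and 19.2% of all genes rose.

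Of 15 other genes of the CDC14 family and mitotic exit, 1 fell and none rose in each line (medians -0.05 and -0.02). It was CDC25A, the phosphatase that switches on cyclin-dependent kinases at S phase entry, at -0.87 ± 0.17 in OPM2 and -0.90 ± 0.17 in H929 (edgeR adjusted p = 0.00544 and 0.00532). The OPM2 value of CDC25A was -0.68 without OPM2 dBRD9-A replicate 2. CDC14A, the paralog of CDC14B, was 0.42 ± 0.29 in OPM2 and -0.08 ± 0.31 in H929 (adjusted p = 0.344 and 0.918), and the OPM2 value was -0.07 without OPM2 dBRD9-A replicate 2.

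Of 23 ankyrin and spectrin skeleton genes, 6 rose and 3 fell in OPM2 and 2 rose and 1 fell in H929 (medians 0.29 and 0.09). ANK2 was 1.10 ± 0.29 in OPM2 (adjusted p = 0.0216, and 0.084 to 0.0931 without OPM2 DMSO replicate 2 or 3 or OPM2 dBRD9-A replicate 1) and SPTB 1.09 ± 0.33 (adjusted p = 0.0406, and 0.0588 to 0.148 without any of 7 single libraries: OPM2 DMSO replicates 2 and 3, OPM2 dBRD9-A replicate 1, H929 DMSO replicate 1 and the 3 H929 dBRD9-A libraries). In H929 they were 0.70 ± 0.31 and 0.62 ± 0.30 (adjusted p = 0.169 and 0.196, the latter 0.0392 without OPM2 dBRD9-A replicate 2). ANK3, like ANK1, had counts in OPM2 and 0 counts in H929 DMSO; in OPM2 it was at 0.322 ± 0.0627 CPM in DMSO and 0.811 ± 0.32 CPM with dBRD9-A (adjusted p = 0.0519, and 0.0268 without OPM2 dBRD9-A replicate 3).

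Of 13 other immunoglobulin-fold adhesion molecules, 2 rose in OPM2 and 4 in H929, and none fell (medians 0.42 and 0.41). NRCAM rose in OPM2 from 0.0703 ± 0.0717 to 1.297 ± 0.81 CPM (4.10 ± 0.70; edgeR adjusted p = 0.00262) and LSAMP from 0.0698 ± 0.0465 to 0.704 ± 0.492 CPM (3.18 ± 0.76; adjusted p = 0.0142, and 0.0652 and 0.0701 without OPM2 DMSO replicate 1 and 3). Both are adhesion molecules of neurons, and in H929 they had at most 24 counts in a group. Their OPM2 log2 fold changes were 3.51 and 2.62 without OPM2 dBRD9-A replicate 2. ALCAM rose in H929 (1.07 ± 0.22; adjusted p = 0.00923) and was 0.59 ± 0.24 in OPM2 (adjusted p = 0.105, and 0.0371 without H929 dBRD9-A replicate 2). NCAM1, the paralog of NCAM2 and a plasma cell tumour antigen known as CD56, was abundant in both lines: 239.1 ± 30.1 and 314.8 ± 53.1 CPM in OPM2 and 143.9 ± 15.3 and 207.7 ± 18.5 CPM in H929, in DMSO and with dBRD9-A. Its changes were 0.40 ± 0.14 (adjusted p = 0.0788) and 0.53 ± 0.15 (adjusted p = 0.0325, and 0.0543 to 0.0813 without any of 5 single libraries: OPM2 DMSO replicate 1, H929 DMSO replicates 1 and 3 and H929 dBRD9-A replicates 1 and 3).

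Among the 7 paralogs tested of 14, 2 rose in OPM2 (SH3PXD2A and ANK2) and 1 in H929 (NCAM1), and none fell (medians 0.42 and 0.19). The other 7 did not pass the filter on low counts. Without OPM2 dBRD9-A replicate 2, 2 of 7 rose in OPM2 and none fell, and 2 rose and 1 fell in H929.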

How the data were processed

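RNA was extracted with the RNeasy Plus Mini Kit and libraries were made with the TruSeq Stranded mRNA kit, per the labels' protocols. Per the submitters' processing notes, STAR, featureCounts and the builds hg19 and GRCh37 were used; versions, filters and the strand setting are not given in the sources used here. The deposited tables hold read counts per RefSeq transcript, and FPKM and TPM columns that the authors derived from them: the transcript lengths that the deposited counts and FPKM imply differed between libraries by at most 9.65e-12 of their value, and TPM recomputed from counts and lengths differed from the deposited TPM by at most 4.97e-12. FPKM and TPM were not used further. Of 51780 transcripts, 1 per symbol was kept, the one with the highest mean count, which gave 25680 symbols.

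The 12 libraries were fitted together in R 4.3.3 with edgeR 4.0.16 (quasi-likelihood, TMM scaling, filterByExpr, Benjamini-Hochberg adjustment, threshold 0.05; comparisons of the lines also at least 2-fold); 16409 genes were tested. limma 3.58.1 (voom) and DESeq2 1.42.0 served as alternatives. CPM are counts scaled by the library total times its TMM factor. The script was tested on simulated data. Floors are 3 counts over a group, and intervals are 95%. The members and gene lists were chosen with earlier results of these data known. All 8 members are described. Other genes named are BRD9, the paralogs, up to 3 called genes per list with the largest absolute log2 fold change, at most 2 more where a small count needs its names, and per member the 3 genes with the highest Pearson r. HABP4 and the 8 genes called without 1 library were named after their values were seen. Upstream sequences are from RefSeq, GRCh38.p14: 6 of 8 members matched by symbol. ANK1 and PSD3 had no entry. For the NCAM2 entry no distance to a counted start was obtained, so it is not printed. The values of 1 further list gene that the naming rule selects are not reported here.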

Additional observations from a re-analysis of the deposited data

Results flagged for a closer look

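The responses of 6 of the 8 genes differed between the lines, which is what they were picked for, so these values are given without a test. The H929 log2 response minus the OPM2 log2 response was -4.09 for CYSLTR1, -2.46 for PSD3 and -2.38 for CDC14B. It was 2.60 for SH3PXD2B, 2.37 for AFAP1L2 and 2.28 for PTGER4.

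For SH3PXD2A, the relative of SH3PXD2B, the difference was -1.83 and passed the test across all genes (edgeR adjusted p = 0.0182), though not without any of 9 of the 12 libraries, as named above.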

How the results depend on the processing

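For the 8 genes, 647 of 654 values under the alternatives moved by less than the spread between replicates and 7 by more; PSD3 in H929, near 0, changed sign in 4 alternatives, and no other value did. The counts of called genes were less stable. For OPM2 (2859) the count was 7155 with limma-voom and library weights, 871 with OPM2 fitted alone and 1383 to 5279 when 1 library was left out. For H929 (2133) it was 5892 with limma-voom, 4969 with H929 fitted alone and 812 to 5946 when 1 library was left out. For the difference (95) it was 372 with DESeq2, 876 with limma-voom, 33 with the replicate number as a block and 35 to 508 when 1 library was left out. Scaling by library totals alone raised the share of higher calls to 69.4% in OPM2 and 71.8% in H929. LYN in OPM2 (0.05) was -0.23 with limma-voom and -0.24 to 0.18 when 1 library was left out, the lowest without OPM2 dBRD9-A replicate 2. The cause of these shifts was not tested.

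Deviations of same-numbered libraries from their group means had correlations of -0.48 to 0.30, 5 of 18 over 0.1. With means of 3 libraries these values cannot decide whether the numbers pair samples, and the main fit did not pair them. With the replicate block 2109 genes were called in OPM2 and 1591 in H929, and the SH3PXD2A difference had an adjusted p of 0.0549. With 3 libraries a group and few counts, small changes of low genes cannot be resolved.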
